A study of Mus musculus with 10 samples.

Results

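The genes described here are the mouse cytochrome P450 enzymes of families Cyp1 to Cyp4, the UDP-glucuronosyltransferases (Ugt), the glutathione S-transferases named Gst with a class letter (the cytosolic classes and the mitochondrial Gstk1) and the carboxylesterases (Ces), followed across ureteric bud (UB) organoids, collecting duct (CD) organoids and adult collecting duct cells. They were taken by symbol alone, as every gene of the deposited table whose name has the form of a member of these families, which gave 120 of 39273 genes: 61 Cyp, 19 Ugt, 22 Gst and 18 Ces genes. Of the 120, 83 reached 10 counts summed over the 10 libraries and were tested, 37 were not, and 36 had at most 3 counts in every library.

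Cells handle lipophilic foreign compounds in steps. Cytochrome P450 enzymes sit in the endoplasmic reticulum and oxidise the compound with electrons passed on by P450 reductase, and carboxylesterases hydrolyse esters and amides. Ugt enzymes then attach a sugar acid and Gst enzymes attach glutathione, which makes the product soluble and ready for export by transporters. Many members also act on the body's own molecules, such as fatty acids, bilirubin and lipid aldehydes. In the kidney these enzymes are best known from the proximal tubule, which takes up and secretes drugs, whereas the collecting duct, which grows from the ureteric bud, is known for salt, water and acid balance.

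RNA was sequenced from 5 groups with 2 libraries each. UB organoids were grown in a medium that keeps ureteric bud progenitors dividing and were taken at day 5, day 10 and day 20. The medium holds GDNF, FGF9, R-spondin 1, CHIR99021, LDN-193189, A83-01, SB202190, a JAK inhibitor and the retinoid TTNPB. CD organoids were day 10 UB organoids moved to a differentiation medium with aldosterone, vasopressin, FGF9, Y27632, PD0325901 and DAPT. They were cultured on in it before harvest, so medium and added days of culture cannot be told apart against day 10. The organoids came from embryonic day 11 buds of a Wnt11-RFP +/- reporter on a C57BL/6 x Swiss Webster background, and nothing in the labels says that the 2 libraries of a group came from separate cultures or animals, so p-values measure the spread between these libraries, which may be technical. The adult group (adult mCD) carries the same strain, genotype and age labels and a title calling it an organoid, but the design text and the study's methods describe cells sorted for Venus from Hoxb7-Venus mice aged 2 months, a reporter of the ureteric bud and collecting duct lineage. The labels and the methods name different extraction and library kits, each for all samples alike. Stage, culture and sorting therefore cannot be told apart in any comparison with the adult group.

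Library totals ran from 11913613 to 24536676 counts, and 3 counts correspond to 0.109 to 0.241 CPM (counts scaled to a common library size with TMM factors), the floor used below. The summed level of 8 ureteric bud markers was 2782 to 4394 CPM in the 6 UB libraries. The summed level of 8 intercalated cell markers was 0 to 6.35 CPM in UB organoids, 1942 to 2032 CPM in CD organoids and 2641 to 2735 CPM in adult mCD. That of 8 principal cell markers was 111 to 226 CPM in UB organoids, 1334 and 1497 CPM in CD organoids, where Avpr2 had no count, and 11520 and 11990 CPM in adult mCD. The adult libraries also carried RNA of other segments. All 21 genes of a proximal tubule list were above 3 counts in both adult libraries and summed to 13890 and 16980 CPM, against 40.8 to 129 CPM in the 8 organoid libraries. The same libraries held 3393 and 3595 CPM of 4 loop of Henle genes and 633 to 648 CPM of 5 endothelial genes. In bulk RNA, fewer cells of a type and less RNA per cell cannot be told apart.

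The enzymes as a whole had like levels at day 5 and day 10 and higher ones at day 20, in CD organoids and in adult mCD, and the Gst family held most of their counts in all organoid groups. All 120 genes together took 0.0574 to 0.0646% of counts in day 5 and day 10 UB organoids, 0.0942 and 0.0944% at day 20, 0.108 and 0.109% in CD organoids and 0.404 and 0.440% in adult mCD. Gst genes summed to 505 ± 20.9 CPM at day 5 (SD, n = 2), 474 ± 29.2 at day 10, 678 ± 18.3 at day 20, 745 ± 16.1 in CD organoids and 1413 ± 20.9 in adult mCD. The 61 Cyp genes went from 80.5 ± 4.28 CPM at day 5 to 202 ± 11.3 in CD organoids and 2805 ± 215 in adult mCD. Ces genes were almost silent at day 5, at 0.427 and 0.735 CPM in sum, and reached 72.9 and 69.7 CPM in CD organoids and 528 and 593 CPM in adult mCD. Ugt genes summed to 0.0427 and 0.163 CPM at day 5, 22.6 and 24.8 CPM in CD organoids and 498 and 599 CPM in adult mCD. The libraries of the 5 groups did not overlap in the Ces and Ugt sums, and in both the order from lowest to highest was day 5, day 10, day 20, CD organoids and adult mCD. CD organoids branch from day 10 and do not follow day 20 in time.

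**Figure D1:**
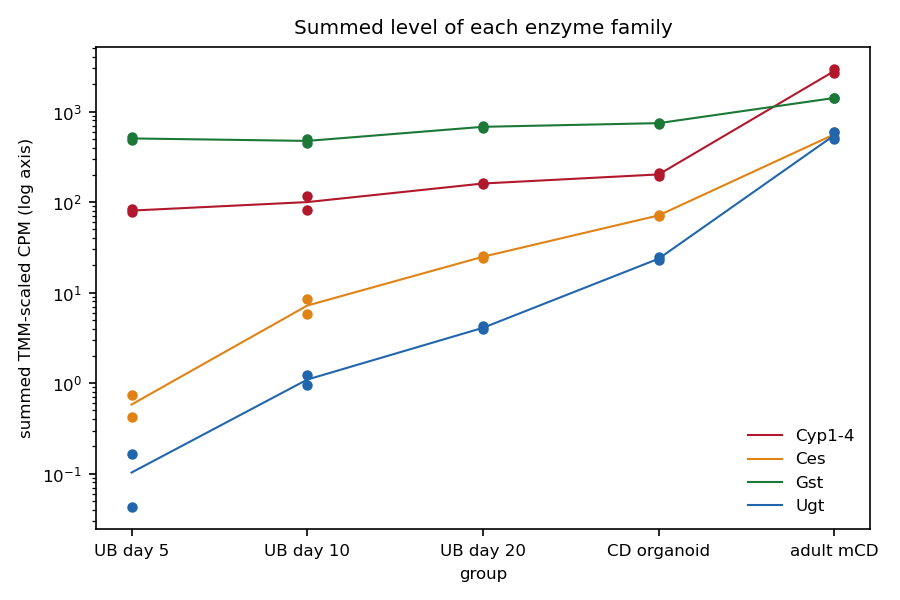
Summed TMM-scaled CPM (log axis) of the Cyp1 to Cyp4, Ces, Gst and Ugt genes in each of the 10 libraries (points) with group means (lines). Gst sums stay between 453 and 1427 CPM, while Ces and Ugt sums climb from under 1 CPM at day 5 to between 498 and 599 CPM in adult mCD.

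More enzymes were detected in CD organoids than in UB organoids, and more again in adult mCD. On the deposited RPKM scale, 16 members reached 1 RPKM in both day 5 libraries, 17 at day 10, 17 at day 20, 24 in CD organoids and 49 in adult mCD. Gst genes made up 13 of the 16 at day 5, and no Ces or Ugt gene was among them. In adult mCD the 49 were 22 Cyp, 15 Gst, 6 Ces and 6 Ugt genes. Members without a count in either library numbered 61 at day 5, 41 in CD organoids and 20 in adult mCD, and these 0 values are limited by depth, since a count of 0 allows up to 3 counts.

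**Figure D2:**
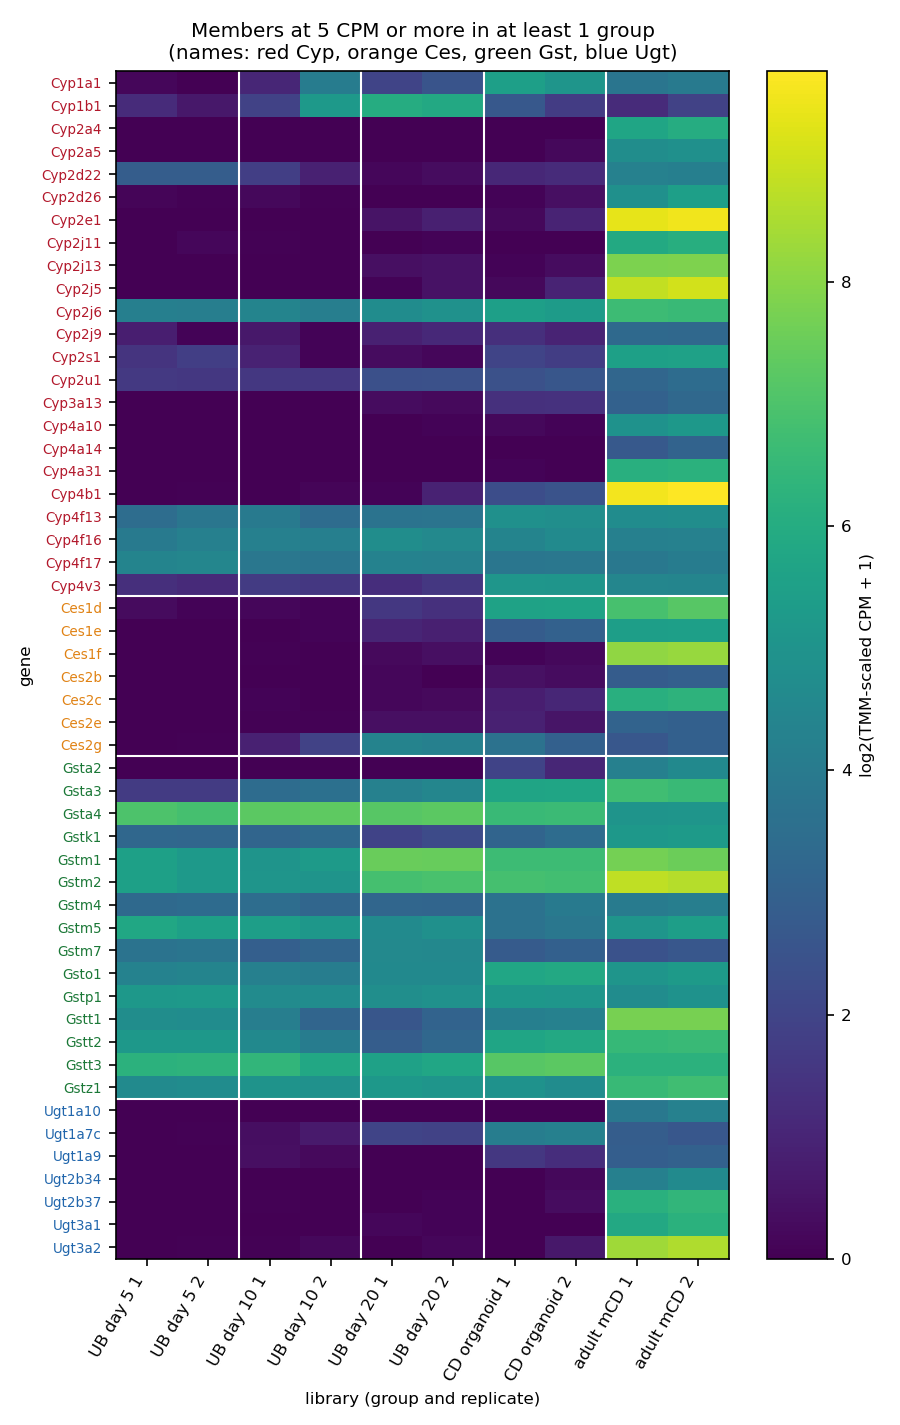
Levels of the 52 members with a mean of at least 5 CPM in at least 1 group (23 Cyp, 7 Ces, 15 Gst and 7 Ugt genes) in each library, as log2(TMM-scaled CPM + 1). Most Gst rows are bright in all 10 columns, whereas rows such as Cyp2e1, Cyp2j5, Ces1f and Ugt3a2 are bright in the 2 adult columns.

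A core of 14 members stayed at or above 1 RPKM in all 10 libraries, 11 of them Gst genes and 3 Cyp genes, and no Ces or Ugt gene. They were Gsta4, Gstm1, Gstm2, Gstm4, Gstm5, Gstm7, Gstt1, Gstt3, Gstp1, Gsto1, Gstz1, Cyp2j6, Cyp4f16 and Cyp4f17. With CPM per kb of merged exons in place of the deposited RPKM, whose gene length adds up all transcripts, 17 members passed, including all 14. The steadiest was Gstp1, a broadly expressed transferase, with a lowest value of 25.1 CPM and a highest of 36.0 CPM. Cyp4f17 and Cyp4f16, of a family of fatty acid hydroxylases, spanned 12.9 to 21.3 CPM and 14.8 to 26.5 CPM.

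Gsta4, which conjugates lipid peroxidation aldehydes such as hydroxynonenal, was the leading member per kb of merged exons at day 5, day 10 and in CD organoids, at 96.3, 124 and 76.6 CPM per kb. At day 20 its 119 CPM per kb stood beside 121 for Gstm1. The levels of Gsta4 were 127 and 117 CPM at day 5, 154 and 160 at day 10, 147 and 154 at day 20, 96.2 and 97.9 in CD organoids and 32.0 and 32.6 in adult mCD. The adult level differed from that of CD organoids by a log2 difference of -1.58 ± 0.08 (SE) from CD organoids with adjusted p = 1.19e-09, below the 4-fold size used for a call. Gstm2, a mu-class transferase, ran the other way, at 114 and 111 CPM in CD organoids and 448 and 395 CPM in adult mCD, a log2 difference of 1.91 ± 0.10 with adjusted p = 2.02e-09 that was also under 4-fold, and past it without the second adult library. Gstt3 was highest in CD organoids, at 145 and 153 CPM, and Gsto1, of the omega class, was highest there too at 52.5 and 57.9 CPM. Gstz1, the maleylacetoacetate isomerase of tyrosine breakdown, lay between 24.4 and 35.1 CPM in all organoid libraries and at 92.3 and 107 CPM in adult mCD. Cyp2j6, of the subfamily of arachidonic acid epoxygenases, went from 17.3 and 17.0 CPM at day 5 to 44.2 and 39.2 CPM in CD organoids and 97.3 ± 3.92 CPM in adult mCD (SD, n = 2).

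Between day 5 and day 20 of UB culture, a carboxylesterase, a P450 that hydroxylates oestrogens and 2 glutathione transferases rose most among members at sizeable levels. A member was called changed where the adjusted p did not exceed 0.01 and the change exceeded 4-fold, by edgeR's quasi-likelihood test across all 24410 genes tested. Of the 83 members tested, 15 were called higher at day 20 and 4 lower, beside 4.68% and 3.93% of all genes tested. The median log2 difference was 0.32 for members and -0.05 for all genes. The higher members were 6 of 12 Ces, 5 of 39 Cyp, 2 of 18 Gst and 2 of 14 Ugt genes. Of these 15, 4 reached 10 CPM in either group, and 10 were at or under 3 counts in both day 5 libraries. Cyp2e1, Ces1f and Cyp2j13 were among the 15, with day 20 means at 0.0875, 0.0889 and 0.154% of their adult mCD means. In the same comparison 6 of 21 proximal tubule genes were called higher and 0 lower, with a median log2 difference of 2.17. The part of proximal tubule RNA in these calls was not tested.

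Ces2g, of the esterases that prefer large alcohol groups, had 0 and 0.0408 CPM at day 5, then 0.872 and 2.81 at day 10, and reached 19.5 and 18.1 CPM at day 20. Only 1 count was seen at day 5, so the ratio of day 20 to day 5 was 902 with a 95% exact counting interval of 161 to 35690. Gstm1 had 45.1 and 37.6 CPM at day 5 and 180 and 176 at day 20, a log2 difference of 2.11 ± 0.10 (SE) with adjusted p = 5.13e-09, which fell just under 4-fold, at 1.99, without the second day 5 library. Gsta3, an alpha-class transferase, was higher at each UB time point, from 2.22 and 2.25 CPM at day 5 through 9.83 and 11.0 at day 10 to 18.5 and 20.8 at day 20, a log2 difference of 3.11 ± 0.13 with adjusted p = 1.22e-09. The 4 groups of libraries from day 5 to CD organoids did not overlap for Gsta3.

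The theta-class transferases Gstt1 and Gstt2 fell over the same days. Gstt2 had 35.3 and 35.5 CPM at day 5, then 23.7 and 16.1 at day 10 and, by day 20, 6.25 and 8.46 CPM, and fell by 2.26 ± 0.18 on the log2 scale with adjusted p = 2.43e-07. Its neighbour Gstt1 had 26.2 and 25.8 CPM at day 5 and 5.04 and 7.54 at day 20, and fell by 2.05 ± 0.27 with adjusted p = 2.85e-05. Without the first day 20 library the Gstt1 difference was -1.77, under 4-fold, and the count of lower members went from 4 to 2. The Gstt1 difference was also under 4-fold with library totals alone, with a stricter filter on low counts, with only the 4 libraries compared and with limma on log2(RPKM + 1), and the Gstt2 and Gsta3 differences with the last of these. Cyp2d22 had 6.36 and 6.29 CPM at day 5 and 0.121 and 0.264 CPM at day 20, and Cyp2s1 had 1.75 and 2.53 and then 0.243 and 0.132 CPM. Both were called lower.

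**Figure D3:**
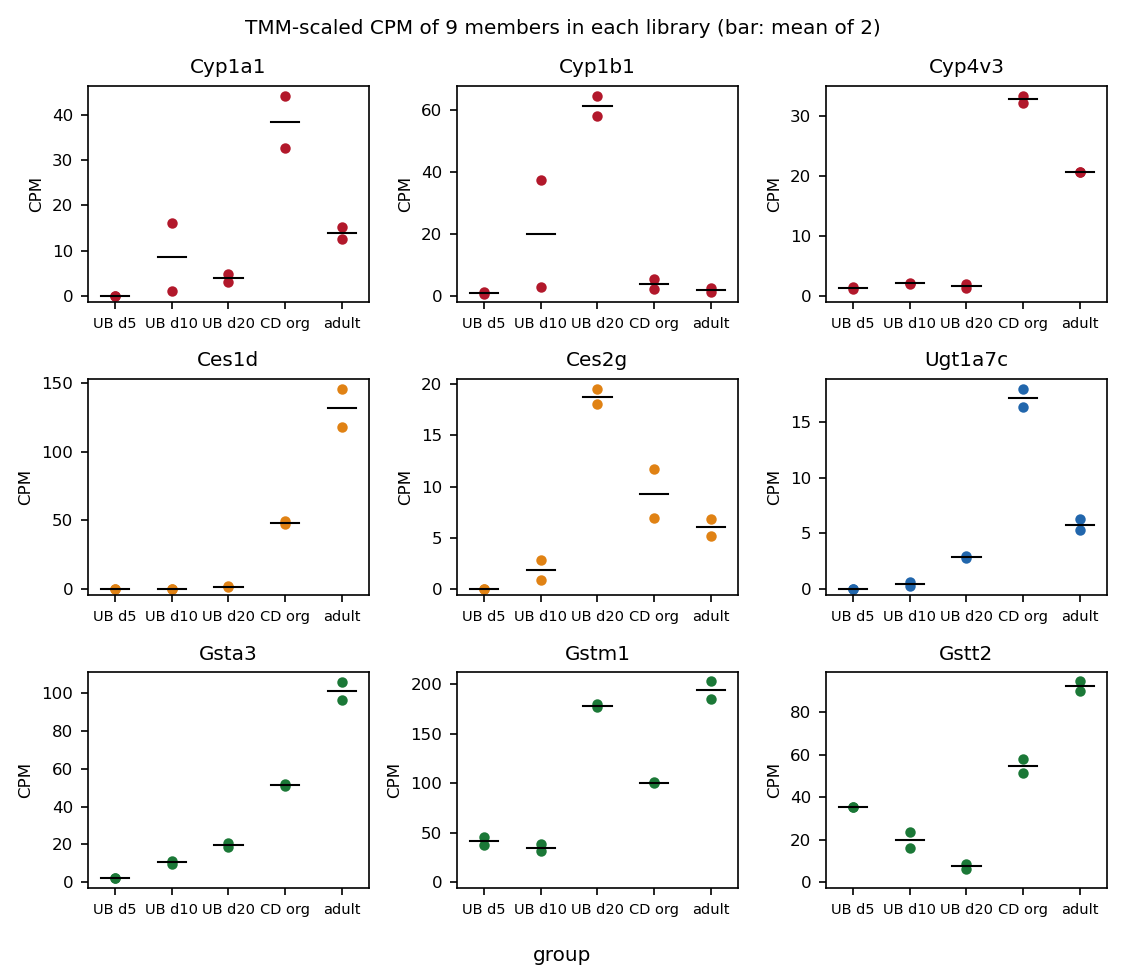
TMM-scaled CPM of 9 members in each library (points) with the mean of 2 (bars), on linear axes. Cyp1b1, Ces2g and Gstm1 are highest among organoids at day 20, Cyp1a1, Cyp4v3, Ces1d and Ugt1a7c are highest among organoids in CD organoids, and the day 10 points of Cyp1a1 and Cyp1b1 lie far apart.

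The Cyp1 family, whose members oxidise polycyclic aromatic compounds and are textbook targets of the aryl hydrocarbon receptor (Ahr), split into different patterns. Cyp1b1 (GRCm38 chr17:79701537-79715061, minus strand) had 1.28 and 0.531 CPM at day 5, 2.82 and 37.6 at day 10, 64.6 and 58.0 at day 20, 5.41 and 2.33 in CD organoids and 1.28 and 2.75 in adult mCD. Cyp1a1 (chr9:57687928-57703824, plus strand) had 0.128 and 0 CPM at day 5, 1.07 and 16.2 at day 10, 3.04 and 4.83 at day 20, 44.2 and 32.7 in CD organoids and 12.6 and 15.3 in adult mCD. Cyp1b1 was thus highest at day 20 and Cyp1a1 in CD organoids, and the second day 10 library was more than 10 times the first for both. Cyp1a2 had counts in 1 library, at 0.0793 CPM.

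Cyp1b1 rose from day 5 to day 20 by 6.01 ± 0.93 on the log2 scale with adjusted p = 0.000115, and by 6.72 without the first day 5 library. From day 20 to CD organoids it fell by 3.95 ± 0.82 with adjusted p = 0.00127, a call that was lost without either CD organoid library, at -4.69 without the first and -3.50 without the second. Cyp1a1 rose from day 20 to CD organoids by 3.28 ± 0.73 with adjusted p = 0.00211. That call was lost under DESeq2 and without the first or the second day 20 library or the first CD organoid library, where the log2 difference was 2.97, 3.64 and 3.05. The rise of Cyp1a1 from day 5 to day 20 rested on 3 counts at day 5, with a ratio of 62.2 and a counting interval of 20.8 to 306, and its call was lost without any 1 of the 4 libraries. Against day 10, the differences of 2.14 ± 0.64 for Cyp1a1 and -2.35 ± 0.82 for Cyp1b1 in CD organoids were not called, at adjusted p = 0.0139 and 0.0306, and rested on which day 10 library was kept. Without the second day 10 library they were 5.11, which was called, and 0.49. Without the first they were 1.26 and -3.22, of which the latter was called. Both were also called with a filter of 1 count in sum, and Cyp1a1 with a replicate block.

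The other known Ahr targets named here are not a full list. Of them, Nqo1 and Tiparp had their highest organoid levels at day 20, as Cyp1b1 did. By contrast, Ahrr, the receptor's repressor, had 2.73 and 2.86 CPM at day 5 and 3.85 and 7.33 CPM at day 10. It had 1.52 and 1.92 CPM at day 20, and 2.21 and 0.882 CPM in CD organoids. Ahr itself had 88.9 and 96.0 CPM at day 5 and 50.6 to 57.6 CPM at day 20 and in CD organoids. Nqo1, a quinone reductase, had 32.9 and 121 CPM in the day 10 libraries, 213 and 198 at day 20 and 33.7 and 23.3 in CD organoids, and fell from day 20 to CD organoids by 2.84 on the log2 scale with adjusted p = 6.79e-05. Aldh1a1, a retinaldehyde dehydrogenase not counted here as an Ahr target, had 47.0 and 122 CPM at day 10 and 502 and 523 at day 20. It had 72.3 and 73.8 CPM in CD organoids, and fell from day 20 by 2.81 on the log2 scale with adjusted p = 2.78e-06. Tiparp, an Ahr target that dampens the receptor, had 46.5 and 78.1 CPM at day 10, 99.4 and 98.7 at day 20 and 22.4 and 20.8 in CD organoids. In Nqo1, Aldh1a1, Tiparp and Ahrr and in Cyp1a1 and Cyp1b1, the second day 10 library was above the first. The first was the higher for Ahr itself, at 80.1 and 66.2 CPM, and for members such as Gstt1, Gstt3, Cyp2s1 and Cyp2d22. Neither is a full list. The cause of these gaps between the day 10 libraries was not tested.

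Further culture of day 10 organoids in the differentiation medium was accompanied by higher levels of esterases, Ugt1a genes and single P450 and Gst genes. Against day 10, 20 members were called higher in CD organoids and 1 lower, beside 4.96% and 5.71% of all genes tested, with a median log2 difference of 1.11 for members and -0.15 for all genes. Against day 20, 17 were called higher and 1, Cyp1b1, lower, beside 4.74% and 4.73%, with medians of 0.52 and 0.00. The 2 comparisons share the CD organoid libraries. At an adjusted p up to 0.05 and any fold, 38 members were higher against day 10 and 28 against day 20. The share of all genes at this cutoff was not computed. The lower members, those called included, numbered 4 against day 10 and 8 against day 20. Among them, Gstm5, a mu-class transferase, had 43.2 and 34.1 CPM at day 10 and 11.7 and 13.6 CPM in CD organoids, and fell by 1.61 ± 0.17 on the log2 scale with adjusted p = 2.54e-06, and Gsta4 fell by 0.69 ± 0.07 with adjusted p = 1.88e-06. Markers of other cell types moved in the same comparison. The summed level of 5 stroma markers was 24.7 and 18.8 CPM at day 10 and 239 and 125 CPM in CD organoids, with 4 of 5 called higher. That of 6 leukocyte markers was 6.19 and 7.66 CPM and then 52.1 and 46.0 CPM, with 1 called higher and Adgre1, C1qa and C1qb at 0 in CD organoids. All 4 loop of Henle genes were called higher, at 0.438 to 0.793 CPM and then 7.98 to 11.3 CPM in sum. Of the 21 proximal tubule genes, 5 were called higher and 1 lower, with a median log2 difference of 1.94. They summed to 40.8 and 42.6 CPM at day 10 and 108 and 129 CPM in CD organoids. Their part in the results was not tested. Against day 10 the higher members were 6 of 12 Ces, 6 of 14 Ugt, 6 of 39 Cyp and 2 of 18 Gst genes, but 14 of the 20 were at or under 3 counts in both day 10 libraries and 4 reached 10 CPM in either group. Those 4 were Ces1d, Cyp4v3, Gsta3 and Ugt1a7c. Cyp2e1 and Cyp2j5 were among the 20 as well, each with no count at day 10 and 0.142 and 0.963 CPM in CD organoids. Their log2 difference of 3.43 became 1.90 without the second CD organoid library. The CD organoid means were 0.0794 and 0.112% of the adult mCD means, beside a median of 0.109% for the 21 proximal tubule genes. The part of proximal tubule RNA in these 2 calls was not tested. Without the first day 20 library, 11 rather than 17 members were called higher against day 20.

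Ces1d (chr8:93166068-93197838, minus strand), a triacylglycerol hydrolase, had 0.119 and 0.0729 CPM at day 10, 2.00 and 1.52 at day 20, 47.5 and 49.3 in CD organoids and 118 and 146 in adult mCD. Its ratio of CD organoids to day 10 was 509 with a 95% exact counting interval of 218 to 1571, and against day 20 the log2 difference was 4.73 ± 0.17 with adjusted p = 1.37e-10. Cyp4v3 (chr8:45304944-45333216, minus strand), a fatty acid omega-hydroxylase, kept between 1.23 and 2.26 CPM in all 6 UB libraries and had 33.5 and 32.2 CPM in CD organoids and 20.8 and 20.7 in adult mCD. It rose by 3.93 ± 0.17 against day 10 and by 4.25 ± 0.19 against day 20, with adjusted p = 4.19e-10 and 6.55e-10. Neither gene's UB libraries overlapped the CD organoid libraries.

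Gsta3 had 50.9 and 51.9 CPM in CD organoids, 2.30 ± 0.10 above day 10 on the log2 scale with adjusted p = 4.93e-10 and under 4-fold with limma on log2(RPKM + 1), and 106 and 96.2 CPM in adult mCD. Gstt2 had 51.2 and 58.1 CPM in CD organoids, 2.89 ± 0.18 above day 20 on the log2 scale with adjusted p = 1.50e-08. Ces1e, a neighbour of Ces1d, had 0 and 0.0729 CPM at day 10 and 6.05 and 7.14 CPM in CD organoids. Gsta2 had no count in any UB library and 2.85 and 1.04 CPM in CD organoids, at least 16.4-fold above day 10. Of the 50-base words of Gsta2, 49.8% also occur in another gene, and the protein of Gsta1 is 95.5% identical, so its counts are uncertain. The member called lower against day 10 was Gstm6, at 0.595 and 1.31 CPM at day 10 and 0 and 0.160 CPM in CD organoids, and no member was called lower there with DESeq2, with limma, with a larger prior count or with only the 4 libraries compared.

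The Ugt1a genes share a locus on chromosome 1 in which each gene has its own start and first exon and all end in common exons, so that each start behaves as a separate promoter. Between 52.1 and 79.8% of the 50-base words of each Ugt1a gene occur in another gene. How the deposited counts treat reads of the common exons is not known, so the split of reads between these genes is uncertain. Their starts lie 164 kb (Ugt1a10) to 7.04 kb (Ugt1a1) before the shared end. The gene with the highest level differed between CD organoids and adult mCD. Ugt1a7c had 0 and 0.0408 CPM at day 5, 0.278 and 0.620 at day 10, 2.97 and 2.78 at day 20, 16.3 and 18.0 in CD organoids and 6.26 and 5.27 in adult mCD. Its rise over day 10 was 5.08 ± 0.30 on the log2 scale with adjusted p = 7.30e-09, and 5.70 without the second day 10 library. The rise over day 20 was 2.55 ± 0.25 with adjusted p = 1.57e-06. With limma on log2(RPKM + 1), a scale that understates changes of low genes, both differences were under 4-fold. Ugt1a10, the farthest start, had no count in any of the 8 organoid libraries and 13.7 and 18.3 CPM in adult mCD, at least 66.6-fold above CD organoids. Ugt1a9 had 1.99 and 1.44 CPM in CD organoids and 6.56 and 7.08 in adult mCD. Ugt1a1, the bilirubin transferase, had 0.997 and 1.36 CPM in CD organoids and 0.226 and 0.157 in adult mCD, and Ugt1a6a had 1.42 and 1.28 and then 0.151 and 0.157 CPM. These last 2 genes were called lower in adult mCD, each against at most 3 counts a library, with ratios of CD organoids to adult mCD of 6.08 (2.34 to 20.0) and 8.82 (3.16 to 34.1).

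The 250 bases before 4 of these starts are shown because they are the sequences that set the genes of the locus apart. They are from RefSeq (GRCm38.p6, plus strand). For 102 of the 120 members the table holds a promoter (250 bases before to 50 after a start), and 3 motifs were searched on both strands in these and in the promoters of all 27025 genes. None of the 3 is in the 4 sequences, which are therefore all in lower case.
Ugt1a10, chr1:88055161-88055410: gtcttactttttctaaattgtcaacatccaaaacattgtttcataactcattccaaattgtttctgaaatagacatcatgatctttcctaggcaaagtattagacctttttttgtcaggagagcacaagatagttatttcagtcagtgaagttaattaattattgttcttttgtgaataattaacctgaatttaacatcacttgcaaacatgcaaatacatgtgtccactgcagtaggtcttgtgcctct
Ugt1a9, chr1:88070529-88070778: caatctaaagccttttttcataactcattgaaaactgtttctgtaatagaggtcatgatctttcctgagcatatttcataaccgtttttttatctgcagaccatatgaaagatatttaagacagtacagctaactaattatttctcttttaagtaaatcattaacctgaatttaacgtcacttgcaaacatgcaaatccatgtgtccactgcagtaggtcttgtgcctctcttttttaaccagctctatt
Ugt1a7c, chr1:88094751-88095000: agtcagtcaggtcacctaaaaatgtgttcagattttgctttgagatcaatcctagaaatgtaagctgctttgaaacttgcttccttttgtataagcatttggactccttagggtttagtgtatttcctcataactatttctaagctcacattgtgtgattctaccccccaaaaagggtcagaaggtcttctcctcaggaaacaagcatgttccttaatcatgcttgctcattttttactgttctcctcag
Ugt1a1, chr1:88211709-88211958: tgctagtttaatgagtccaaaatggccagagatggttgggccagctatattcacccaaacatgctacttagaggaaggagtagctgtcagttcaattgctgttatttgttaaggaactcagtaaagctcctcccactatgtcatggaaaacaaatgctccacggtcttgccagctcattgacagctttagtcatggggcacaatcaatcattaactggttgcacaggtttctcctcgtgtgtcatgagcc

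The antioxidant response letters TGACNNNGC, bound by Nfe2l2 with small Maf proteins, were in 13.99% of promoters and in 9 of the 102 members, 3 of them Gst genes (Gsta3, Gstm5 and Gstm7). Gsta3 is shown because its level was higher at each later UB time point and higher in CD organoids than at day 10, on the plus strand with the match in capitals.
Gsta3, chr1:21240335-21240584: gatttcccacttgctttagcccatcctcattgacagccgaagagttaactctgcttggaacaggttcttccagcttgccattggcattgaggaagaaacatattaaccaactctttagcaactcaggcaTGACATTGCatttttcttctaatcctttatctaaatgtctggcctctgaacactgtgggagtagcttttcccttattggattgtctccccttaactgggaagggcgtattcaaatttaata
The Ahr letters TNGCGTG were in 5.84% of promoters and in 2 members, Gsta2 and Ugt1a5. The Hnf4 letters CAAAGTCCA were in 0.56% of promoters and in 4 members, Cyp2c65, Cyp2c69, Cyp2c70 and Cyp3a11. These had 1, 1, 2 and 24 counts summed over all libraries, and none was called higher in adult mCD. Each sequence shown holds at most 1 match to the 3 motifs, so none overlap there, and a match or its absence in so short a window says nothing of binding.

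**Figure D4:**
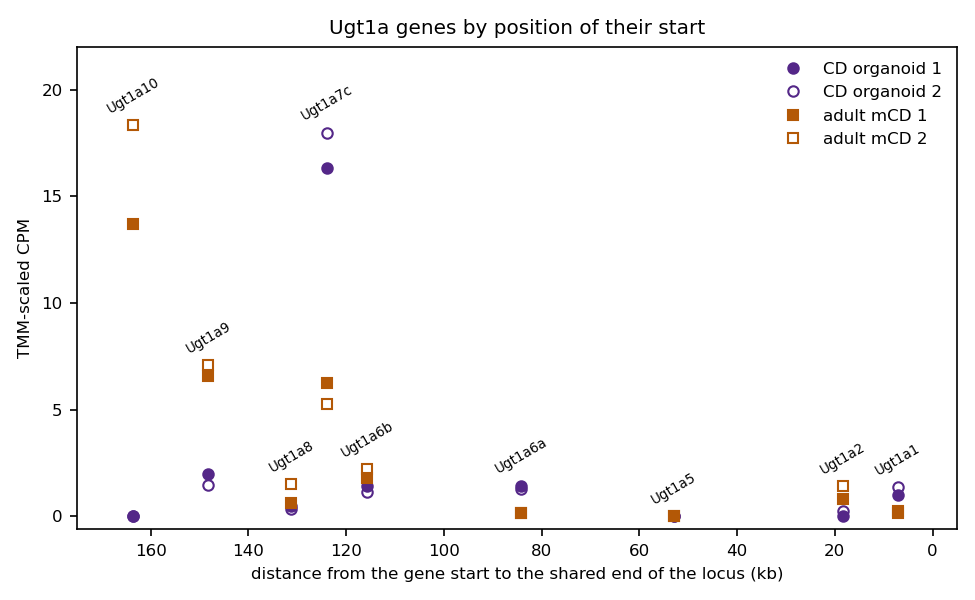
TMM-scaled CPM of the 9 Ugt1a genes in the CD organoid and adult mCD libraries, placed by the distance in kb from each gene's start to the shared end of the locus. Ugt1a7c is the highest in CD organoids at 16.3 and 18.0 CPM, and Ugt1a10 is the highest in adult mCD at 13.7 and 18.3 CPM with no count in CD organoids.

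From CD organoids to adult mCD, many Cyp2, Cyp4, Ces, Ugt2 and Ugt3 genes rose, and all 21 genes of the proximal tubule list were called higher as well. Of the 83 members tested, 37 were called higher in adult mCD and 3 lower, beside 9.84% and 4.5% of all genes tested, with a median log2 difference of 1.95 for members and 0.00 for all genes. They were 21 of 39 Cyp, 7 of 12 Ces, 6 of 14 Ugt and 3 of 18 Gst genes. Of the 37, 23 reached 10 CPM in adult mCD. Of the 37, 21 had at most 3 counts in each CD organoid library. Cyp2a4, Cyp2d9, Cyp2d12, Cyp2j7, Cyp4a14, Cyp4f14, Ces2h, Ugt1a10 and Ugt2b5, all among the 37, had no count in any organoid library. They passed the count filter through adult mCD alone, so only a higher adult level was possible. Others of the 37, such as Cyp4a31, Cyp2j11, Cyp2a5, Ugt3a1 and Ugt2b37, had organoid counts too few to pass the filter without adult mCD. Such members enter the median too, so neither the 37 of 83 nor the median is independent of the filter. The 3 lower members, Ces2a, Ugt1a6a and Ugt1a1, were all under 5 CPM in both groups. Ces2a had 4.99 and 3.85 CPM in CD organoids and 1 count in adult mCD, a ratio of 116 (20.4 to 4607). Scaling by library totals alone shifted the median of all genes to -0.34 in this comparison, and 33 members were then called higher.

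Cyp4b1 (chr4:115624725-115647723, minus strand), which oxidises fatty acids and activates several protoxins, was the highest member of adult mCD per kb of merged exons, at 748 and 847 CPM, beside 3.92 and 4.65 CPM in CD organoids, 0.0607 and 0.926 at day 20, and at most 0.109 at day 5 and day 10. Its adult level was 7.53 ± 0.22 above CD organoids on the log2 scale, with adjusted p = 1.17e-11. Cyp2e1 (chr7:140763739-140774987, plus strand), which oxidises ethanol and small solvents, had 661 and 731 CPM in adult mCD, 0.142 and 0.963 in CD organoids, 0.425 and 0.793 at day 20 and none at day 5 or day 10. Cyp2j5 (chr4:96628773-96664154, minus strand), a renal arachidonic acid epoxygenase, had 455 and 531 CPM in adult mCD and 0.142 and 0.963 in CD organoids. The log2 differences were 10.22 ± 0.24 for Cyp2e1 and 9.72 ± 0.27 for Cyp2j5, with adjusted p = 2.56e-11 and 8.33e-11, and became 11.82 and 11.32 without the second CD organoid library and 9.42 and 8.92 without the first. Cyp2j13 had 224 and 231 CPM in adult mCD against 0.0712 and 0.241, a ratio of 1505 (counting interval 587 to 5524) and a log2 difference of 10.11 that became 10.86 without the second CD organoid library. Cyp2j11 had 59.5 and 66.9 CPM against no count, at least 263-fold higher.

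Among the other P450 genes, Cyp4a31, of the omega-hydroxylases that peroxisome proliferators induce, had 69.5 and 73.3 CPM in adult mCD and 1 count in CD organoids, a ratio of 1891 (339 to 74740) and a log2 difference of 9.60 that became 10.40 without the first CD organoid library. Cyp2a4, a steroid hydroxylase, had 51.8 and 63.9 CPM and no count in any organoid library, at least 241-fold above CD organoids, and its near-identical neighbour Cyp2a5 (97.57% of the protein) had 26.3 and 28.1 CPM, so the split of reads between the 2 is uncertain. The Ugt3a genes, which use other sugars than glucuronic acid, were led by Ugt3a2 at 320 and 379 CPM, against 0 and 0.562 in CD organoids, a log2 difference of 10.10 ± 0.30 with adjusted p = 1.10e-11, of 12.72 without the second CD organoid library and of 9.15 without the first. Ugt3a1 had 58.3 and 74.1 CPM against no count, at least 275-fold higher. Ugt2b37 had 70.6 and 83.4 CPM in adult mCD and 0 and 0.241 in CD organoids, a ratio of 679 (232 to 3296) and a log2 difference of 8.85 that became 10.54 without the second and 8.04 without the first CD organoid library. Ces1f (chr8:93256236-93279747, minus strand) had 275 and 301 CPM against 0.0712 and 0.160, a ratio of 2545 (871 to 12340). Among Gst genes, Gstt1 rose most, from 17.4 and 18.5 CPM to 211 and 213 CPM, by 3.56 ± 0.24 with adjusted p = 2.59e-08, followed by Gsta2 at 3.36 ± 0.36 and the mitochondrial Gstk1 at 2.08 ± 0.16.

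The CD organoid level as a share of the adult level separated the members into groups. Of 50 members at 5 CPM or more in adult mCD, 17 were under 1% of that level in CD organoids, 7 between 1 and 10%, 16 from 10 to 100%, and 10 at 100% or more. Of the 21 proximal tubule genes, 20 were under 1%, with a median of 0.109%, and the exception was Ass1 at 23.1%. The 17 members were 11 Cyp, 5 Ugt and 1 Ces gene, and no Gst gene. In the first CD organoid library the median of these 17 was 0% and that of the 20 list genes 0.0245%, and in the second library they were 0.138% and 0.161%. The second library was the higher for 10 of the 17 members, the first for 2, and 5 had no count in either. Of the 20 list genes, 19 were higher in the second library. The day 20 UB libraries had a like pattern, with medians of 0% for the 17 members and 0.0245% for the 20 list genes in the first. In the second they were 0.0805% and 0.119%. In the day 5 and day 10 libraries the medians were 0% for the members and at most 0.0233% for the list genes. The part of proximal tubule RNA in the adult levels, or in the traces in the CD organoid and day 20 libraries, was not tested.

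**Figure D5:**
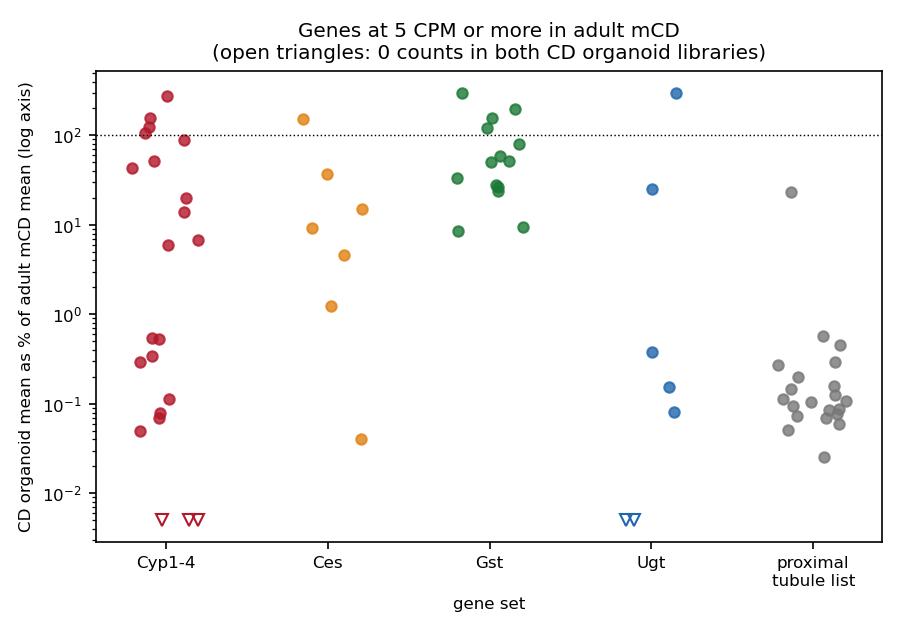
Mean level in CD organoids as a percent of the mean in adult mCD (log axis) for the 50 members and the 21 proximal tubule genes at 5 CPM or more in adult mCD. Gst genes lie above 8%, 20 of the 21 proximal tubule genes lie under 1%, and Cyp and Ugt genes fall into a group under 1% (open triangles for 5 genes at 0) and a group above 5%.

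The 10 members at or above the adult level in CD organoids were Cyp1a1, Cyp4f13, Cyp4f16, Cyp4v3, Ces2g, Gsta4, Gsto1, Gstp1, Gstt3 and Ugt1a7c. None of these was called lower in adult mCD at the 4-fold size. Below that size, Gsta4, Ugt1a7c, Gstt3, Cyp4v3 and Gsto1 had adjusted p of 1.19e-09, 8.36e-05, 3.53e-05, 0.00159 and 0.000198, with log2 differences of -1.58, -1.56, -0.99, -0.66 and -0.63. Ces2g had 11.7 and 6.90 CPM in CD organoids and 5.20 and 6.84 in adult mCD, groups that did not overlap, with adjusted p = 0.177.

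The partner genes of these enzymes, in lists put together with earlier results of these data known, are given by counts of calls. None of 4 electron carrier genes (Por, Cyb5a, Cyb5b and Cyb5r3) was called in any of the 4 comparisons. Por, the P450 reductase, stayed between 132 and 224 CPM in all libraries, and the largest changes were in Cyb5a, at 1.61 on the log2 scale from CD organoids to adult mCD, and Cyb5b, at 1.21 from day 5 to day 20. Of 22 other oxidising and hydrolysing enzymes, 8 were called higher and 0 lower from day 5 to day 20, 3 higher and 1 lower from day 10 to CD organoids, 1 higher and 5 lower from day 20 to CD organoids, and 6 higher and 0 lower in adult mCD. Adh1, an alcohol dehydrogenase, was the 1 higher against day 20, at 1.21 and 1.72 CPM at day 20 and 164 and 157 CPM in CD organoids. Fmo1, a flavin monooxygenase, and Ephx2, the soluble epoxide hydrolase, were among those higher in adult mCD, at 119 and 207 CPM on average.

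Of 14 tested genes for other conjugating enzymes, 2 were called higher and 0 lower from day 5 to day 20, 3 higher and 1 lower in CD organoids against both day 10 and day 20, and 6 higher and 0 lower in adult mCD. The sulfotransferases Sult1c2 and Sult1a1 had the largest log2 differences from day 10 in CD organoids, at 15.5 and 22.7 CPM against 0.169 and 0.508 CPM at day 10, and Nat8 and Sult1d1 had the largest in adult mCD, at 57.9 and 290 CPM. None of 9 glutathione synthesis and recycling genes was called in the 3 organoid comparisons, and 4 were called higher in adult mCD, with the largest log2 differences in Gpx3, a secreted peroxidase of the proximal tubule at 3733 and 5008 CPM, and Ggt1 at 392 and 432 CPM. Gclc, the catalytic subunit of the first enzyme of glutathione synthesis, had 93.5 and 98.7 CPM at day 5 and 301 and 280 CPM in CD organoids, a change of 1.12 over day 10 with adjusted p = 2.99e-08 that stayed under 4-fold.

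Of 14 tested receptors and regulators, Ppara was called higher from day 5 to day 20, none in CD organoids against day 10, 1 lower against day 20 (Tiparp), and Tiparp, Nr1i2, Ppara and Hnf4a higher in adult mCD, with Hnf4a at 257 and 295 CPM against 0.142 and 0.481. Nr1i2 and Nr1i3, the drug-sensing nuclear receptors, were at or under 0.241 CPM in every organoid library. Of 10 Nfe2l2 targets, 2 were called higher from day 5 to day 20 (Nqo1 and Slc7a11), 1 lower against day 10 and 2 lower against day 20 (Slc7a11, and Nqo1 against day 20), and 1 higher in adult mCD (Osgin1). Of 10 efflux transporters, 1 was called higher from day 5 to day 20 (Abcb1b), 1 higher and 1 lower in CD organoids in both comparisons (Abcc3 and Abcb1b), and 6 higher in adult mCD, with the largest log2 differences in Slc47a1 and Abcc2, at 9.02 and 8.44. Abcc3, which exports glucuronides, rose from 1.71 and 2.88 CPM at day 10 to 52.5 and 47.8 CPM in CD organoids.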

How the data were processed

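RNA-seq of 10 libraries in 5 groups of 2 was analysed. By the study's methods, the authors trimmed reads and aligned them with STAR to mouse mm10 with GENCODE annotation. By the same methods, they estimated gene counts with Partek's E/M model. Whether the deposited counts came from that model was not checked. The submitters' processing notes also name FastQC 0.11.8, cutadapt 2.5, Trimmomatic 0.36 and edgeR 3.28.1. The deposited table gives whole-number counts for 39273 genes, RPKM values that the authors scaled with TMM, and a TMM-scaled signal by the authors that was not used. Every column was matched to a sample by name. The deposited gene length sums all transcripts, so levels between genes are CPM per kb of merged exons. CPM was computed from the deposited counts with TMM factors.

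Genes with 10 counts in sum were fitted over all 10 libraries with edgeR 4.0.16 (quasi-likelihood, R 4.3.3), adjusted by Benjamini-Hochberg over 24410 genes, and called where the adjusted p did not exceed 0.01 and the change exceeded 4-fold. limma 3.58.1 and DESeq2 1.42.0 were alternatives. The fit was tested on simulated data for CD organoids against day 10, and recovered 200 of 200 genes changed 8-fold among 23591. The changed genes had a mean of at least 5 CPM, and all genes were given the same spread between libraries. The simulation therefore does not cover genes near 3 counts or genes whose libraries differ widely within a group. A group at 0 counts gives a bound from 3 counts, and a group at 1 to 3 counts a library an exact interval, which covers counting error only. Members and lists were chosen with earlier results of these data known. Genes named with their tests followed a rule: per comparison the 10 largest called rises and falls with at least 10 CPM on average over the 4 libraries and no overlap, the 8 highest members by RPKM in each group, the Cyp1 family, the members at 1 RPKM or more in all libraries, and the 2 largest changes of each pathway list. Ces2g, Ces2a, Ces1e, Cyp2a5, Cyp2d22, Cyp2s1, Cyp4f13, Gsta2, Gstk1, Gstm6, the other Ugt1a genes and list genes beyond those 2 were named after their values were seen. Calls of 1 gene in the list of receptors and regulators are not reported here.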

Additional observations from a re-analysis of the deposited data

How the results depend on the processing

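The counts of members called higher and lower were 15 and 4 at day 20 against day 5, 20 and 1 in CD organoids against day 10, 17 and 1 against day 20, and 37 and 3 in adult mCD against CD organoids. In that order, calls by an adjusted p up to 0.05, whatever the fold, numbered 28 and 9, 38 and 4, 28 and 8, and 50 and 10. In the same order, limma on log2(RPKM + 1) gave 3 and 0, 2 and 0, 4 and 1, and 20 and 0. The share of all genes called was not computed at these or the following settings. A prior count of 5 gave 9 higher at day 20 against day 5, 12 higher and 0 lower against day 10, and 1 lower in adult mCD. DESeq2 and the fit to only the 4 libraries compared each gave 0 lower against day 10, a filter of 1 count in sum gave 2 there, and DESeq2 and the sums of near-identical members each gave 1 lower in adult mCD. Leaving out 1 library gave 10 to 14 higher and 2 to 4 lower at day 20 against day 5, 16 to 18 and 0 to 2 against day 10, 11 to 15 and 0 to 1 in CD organoids against day 20, and 32 to 34 and 2 in adult mCD. The lone library left is assumed to vary like the other groups. With a replicate block the counts were 16 and 4, 21 and 1, 17 and 1, and 36 and 2. The libraries share only a number, since deviations of same-numbered libraries correlated at -0.102 to 0.093. Of 1771 alternative values for 128 named changes, 1712 kept direction and call, 48 lost a call, 11 gained one and 0 reversed. The causes were not tested. CPM per kb of merged exons, chosen after seeing the data, gave 17 shared members rather than 14. Depth limits members near 3 counts, which make up most calls of low members.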
